A study of Mus musculus with 4 samples.

Results

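Of the genes at the start of chromosome 17, 10 are described here in the mouse stomach: Scaf8, Tfb1m, Snx9, Gtf2h5, Dynlt1b, Rnaset2b, Cep43, Sft2d1, Qk and Thbs2. Each is named as the single gene of 1 probe in the array's annotation, and each probe had a value on all 4 arrays. They are 10 of the 7682 genes measured on all arrays and 10 of the 379 on chromosome 17. In gene order they hold positions 1, 2, 4, 5, 6, 8, 9, 10, 12 and 22 of those 379, so they lie in the most proximal measured stretch, Scaf8 to Thbs2, without filling it. The other 12 measured genes of that stretch serve for comparison. The 10 were chosen by their measured log2 difference between the strains together with their place on the chromosome, so that difference describes them, and no limma call on it is a test of the 10.

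The congenic mice were male, homozygous B6.CAST-17, a strain that by its name carries CAST sequence of chromosome 17 on a C57BL/6J background. The wild-type mice were male C57BL/6J. All ate chow and were deprived of food for 4 h before the stomach was taken, and no age is given in the sources used here. RNA of 3 animals was pooled for each of the 4 single-colour arrays, with 2 pools per strain, so single animals were not seen. The study's title concerns Glp1r expression, and Glp1r lies elsewhere on the same chromosome. Neither the ends of the CAST segment nor a genotype at any of the 10 genes is given in the sources used here. Signals are on the log2 scale, and differences are congenic minus wild type ± SE from limma, with 2 pools per strain. A stomach holds many cell types, and fewer cells of a type cannot be told apart from less RNA per cell.

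A congenic strain keeps a donor's segment of one chromosome after repeated backcrossing, so genes inside the segment carry the donor's alleles while the rest of the genome comes from the recipient. Variants beside a gene can change its transcript level on the same chromosome. They can also lie under a probe and change how strongly a transcript binds to it. The 10 genes have no shared pathway. Scaf8 and Qk bind the transcription machinery and RNA, Gtf2h5 serves transcription in the nucleus, and Tfb1m methylates ribosomal RNA in mitochondria. Dynlt1b and Cep43 belong to the microtubule system, Snx9 and Sft2d1 to membrane traffic, Rnaset2b degrades RNA, and Thbs2 is secreted into the matrix.

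Sequences just upstream of the start are shown for 2 of the genes with large differences, Rnaset2b and Thbs2, and for Rnaset2a, a near-identical copy of Rnaset2b farther along the stretch. They are RefSeq sequences of assembly GRCm38.p6, a C57BL/6J genome, so they show the wild-type letters and not those of CAST. Each covers the 250 bases before the annotated start, 5′ to 3′. The Rnaset2b window is chr17:6978610-6978859 on the plus strand, that of Rnaset2a is chr17:8147788-8148037 on the minus strand, and that of Thbs2 is chr17:14694263-14694512 on the minus strand. In the first 2 lines the capitals mark the longest run that both Rnaset2 copies share letter for letter, 103 bases. In the last line they mark the motif CCAAT, read on either strand.
Rnaset2b: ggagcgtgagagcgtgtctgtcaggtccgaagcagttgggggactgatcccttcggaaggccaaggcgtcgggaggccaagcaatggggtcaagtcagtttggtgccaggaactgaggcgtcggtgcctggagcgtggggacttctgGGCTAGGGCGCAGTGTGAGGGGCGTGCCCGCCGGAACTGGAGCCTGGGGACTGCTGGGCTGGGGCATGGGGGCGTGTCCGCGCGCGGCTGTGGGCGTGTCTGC
Rnaset2a: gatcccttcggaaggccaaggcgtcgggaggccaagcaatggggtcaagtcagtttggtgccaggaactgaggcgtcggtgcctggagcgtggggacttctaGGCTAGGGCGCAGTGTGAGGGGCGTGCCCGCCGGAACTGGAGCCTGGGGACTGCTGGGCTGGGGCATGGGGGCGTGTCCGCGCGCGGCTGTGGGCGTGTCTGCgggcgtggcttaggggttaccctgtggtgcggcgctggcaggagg
Thbs2: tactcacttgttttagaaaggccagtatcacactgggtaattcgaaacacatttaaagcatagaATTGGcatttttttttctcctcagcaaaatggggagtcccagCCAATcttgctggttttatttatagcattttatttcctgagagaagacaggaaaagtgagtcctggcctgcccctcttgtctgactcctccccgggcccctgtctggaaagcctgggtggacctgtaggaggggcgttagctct

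The Rnaset2b and Rnaset2a windows could be aligned over 205 bases, of which 204 were identical. No probe with a single gene name stands for Rnaset2a here, and the same holds for Dynlt1a, Dynlt1c and Dynlt1f, the copies of Dynlt1b that lie near it. The Dynlt1c and Dynlt1f windows matched at 139 of 142 aligned bases. Which copies the Rnaset2b and Dynlt1b probes read was not tested, and their values are uncertain to that extent. RefSeq windows were found for 8 of the 10 genes, all but Snx9 and Dynlt1b. The Thbs2 window held CCAAT 144 bases before the start and its reverse complement ATTGG 186 bases before it. It was the only one of the 8 with CCAAT, a motif in 33.8% of all 32851 windows, and the only one with TATAAA, read there on the opposite strand as TTTATA and present in 12.4% of all windows. GGGCGG or its reverse complement CCGCCC was present for 5 of the 8 genes (Tfb1m, Gtf2h5, Cep43, Sft2d1 and Qk) and in 32.7% of all windows. The Qk window held 52 CG pairs and that of Scaf8 40, against 3 in that of Thbs2 and a median of 6 over all windows. These matches describe letters and do not show that a factor binds.

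Between the strains, 7 of the 10 genes read higher in the congenic stomach and 3 lower. In limma over all 13475 probes, 3 of the 10 passed an adjusted p of 0.05, Dynlt1b and Thbs2 higher and Rnaset2b lower, beside a background of 0.475% of all probes (0.289% higher and 0.186% lower). The pools of the strains did not overlap for any of the 10, beside 49.4% of all probes (23.4% with the congenic pools higher and 26.1% with them lower). The median difference was 0.305 over the 10 genes, and -0.002 over all probes. Because the strain difference picked the genes, nothing is read from these counts or from this median.

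**Figure D1:**
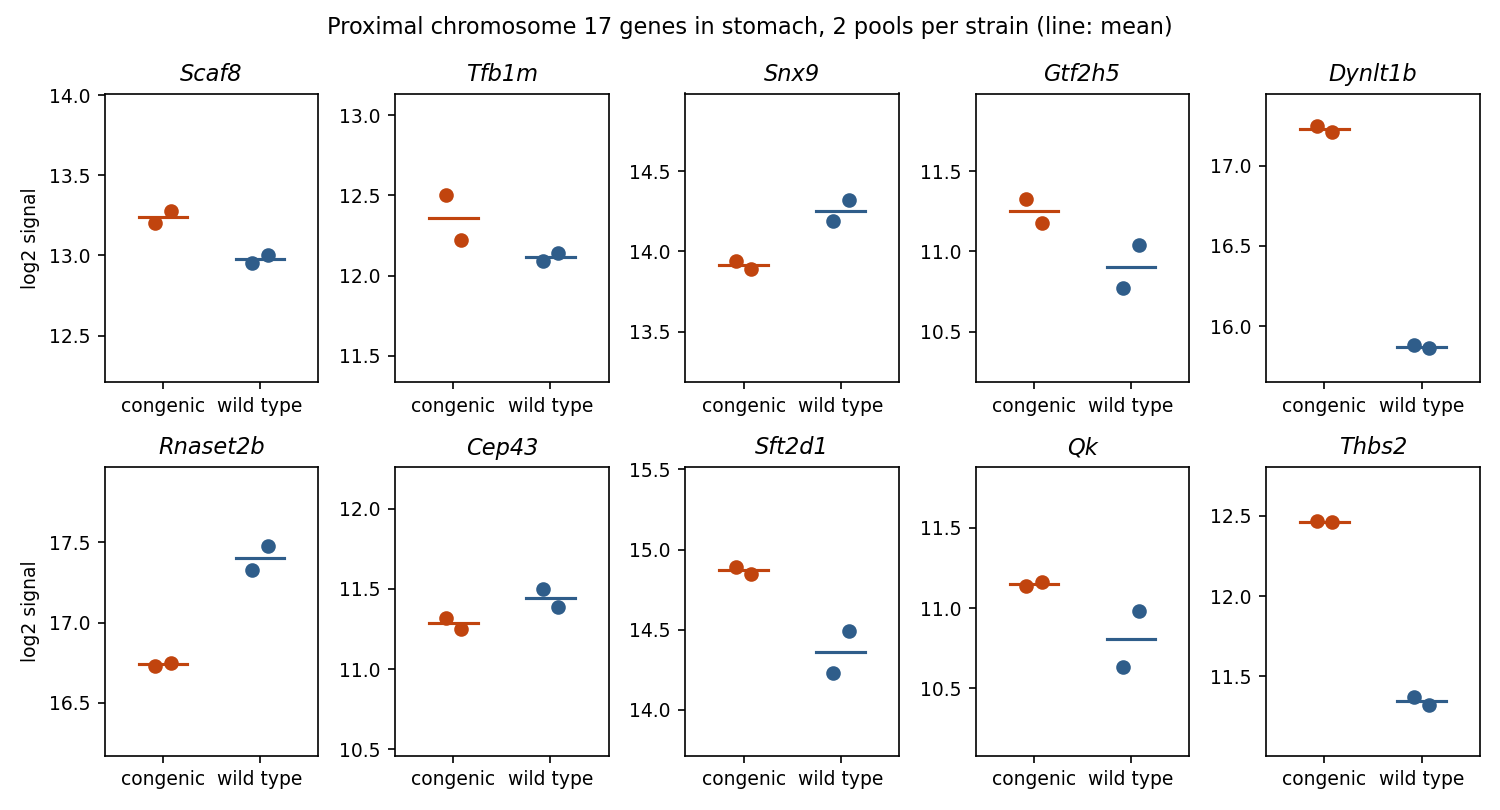
Log2 signal of each of the 10 genes in the 2 congenic pools (left) and the 2 wild-type pools (right); points are pools and lines are means, and every panel spans the same number of log2 units. The strains lie farthest apart for Dynlt1b, which averaged 17.23 in congenic and 15.87 in wild-type pools, and closest for Cep43, at 11.28 and 11.44.

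Scaf8 and Qk act on RNA in the nucleus. Scaf8 binds the tail of RNA polymerase II and is known to restrain premature transcript ends. Its probe (417127) read 13.20 and 13.28 in congenic pools 1 and 2, against 12.95 and 13.00 in wild-type pools 1 and 2. The congenic pools were both higher, by 0.27 ± 0.098 (1.20-fold). Qk, the RNA-binding protein quaking, which steers splicing and is known for its role in myelin, read 11.14 and 11.16 in congenic pools, against 10.63 and 10.98 in wild-type pools (probe 914911). Its difference of 0.35 ± 0.20 rested on wild-type pools that lay 0.357 apart, farther than the difference itself. Only 0.018 separated the congenic pools of Qk.

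Gtf2h5 acts in the nucleus and Tfb1m in mitochondria. Gtf2h5 is the smallest subunit of TFIIH, the complex that opens DNA at promoters and in nucleotide excision repair. It read 11.33 and 11.18 in congenic pools, against 10.77 and 11.04 in wild-type pools (probe 452215), a difference of 0.35 ± 0.19. The lower congenic pool was 0.137 above the higher wild-type pool, while the wild-type pools lay 0.272 apart. Tfb1m methylates the small ribosomal RNA of mitochondria. Its probe (394430) read 12.50 and 12.22 in congenic pools, against 12.09 and 12.14 in wild-type pools, a difference of 0.24 ± 0.14. Congenic pool 1 alone was high, and pool 2 lay 0.086 above the nearest wild-type pool.

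Dynlt1b, a light chain of the dynein motor that moves cargo along microtubules, had the largest difference of the 10. Its probe (825725) read 17.25 and 17.21 in congenic pools, against 15.88 and 15.86 in wild-type pools. The congenic pools were 2.58-fold higher (1.36 ± 0.068), with a gap of 1.339 between the nearest pools of the strains. Pools of the same strain lay 0.031 apart in congenic and 0.021 apart in wild-type mice. Cep43, a protein of centrioles and of the base of cilia, had the smallest difference. It read 11.32 and 11.25 in congenic pools, against 11.50 and 11.39 in wild-type pools (probe 401591), a difference of -0.16 ± 0.16. The nearest pools of the strains were 0.071 apart, closer than the wild-type pools were to each other (0.109).

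Snx9 and Sft2d1 belong to membrane traffic and differed in opposite directions. Snx9, a sorting nexin that bends membranes and recruits dynamin during clathrin endocytosis, read 13.94 and 13.89 in congenic pools, against 14.19 and 14.32 in wild-type pools (probe 749724). The congenic level was 78.9% of the wild-type level (-0.34 ± 0.089). Sft2d1, a membrane protein whose yeast relative acts in vesicle transport to the Golgi, read 14.89 and 14.85 in congenic pools, against 14.23 and 14.49 in wild-type pools (probe 924153). The congenic pools were 1.42-fold higher (0.51 ± 0.10), and the gap between the nearest pools, 0.364, was wider than the 0.251 between the wild-type pools.

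Rnaset2b encodes an acid ribonuclease of lysosomes. Its probe (653008) read 16.73 and 16.75 in congenic pools, against 17.33 and 17.48 in wild-type pools. The congenic level was 62.9% of the wild-type level (-0.67 ± 0.080), with 0.583 between the nearest pools. As set out with the sequences, the probe may also read Rnaset2a. Thbs2, a thrombospondin of the extracellular matrix known to restrain blood vessel growth, lies at the far end of the stretch. It read 12.47 and 12.46 in congenic pools, against 11.37 and 11.32 in wild-type pools (probe 915872). The congenic pools were 2.17-fold higher (1.12 ± 0.13), and pools of the same strain lay 0.008 apart in congenic and 0.059 apart in wild-type mice.

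Between pools of the same strain most of the 10 genes lay closer in the congenic mice than in the wild-type mice, with a median of 0.043 in congenic and 0.121 in wild-type pools. This held for 7 of the 10, while Scaf8, Tfb1m and Dynlt1b lay farther apart in the congenic mice. Over all probes the median was 0.133 in each strain. The pools of the strains overlapped for none of the 10, and such genes tend to have small spreads. Nothing is therefore read from these medians or from the 7 of 10. The wild-type pools of Qk, Gtf2h5 and Sft2d1 were among the wider ones, farther apart than 84.5%, 76.6% and 73.6% of all probes, and in each of these wild-type pool 1 was the lower. When each pool was left out in turn, Dynlt1b ranged between 1.35 and 1.38, Thbs2 between 1.09 and 1.15 and Rnaset2b between -0.75 and -0.59. Qk ranged between 0.17 and 0.52, and Tfb1m between 0.11 and 0.38, the lower value without congenic pool 1. Of the 3 that passed, Rnaset2b no longer passed without congenic pool 1 or without congenic pool 2, and Thbs2 no longer passed when any 1 of the 4 pools was left out. Neither passed without the variance trend. These calls use the values that picked the genes, so a call kept under a setting supports nothing.

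**Figure D2:**
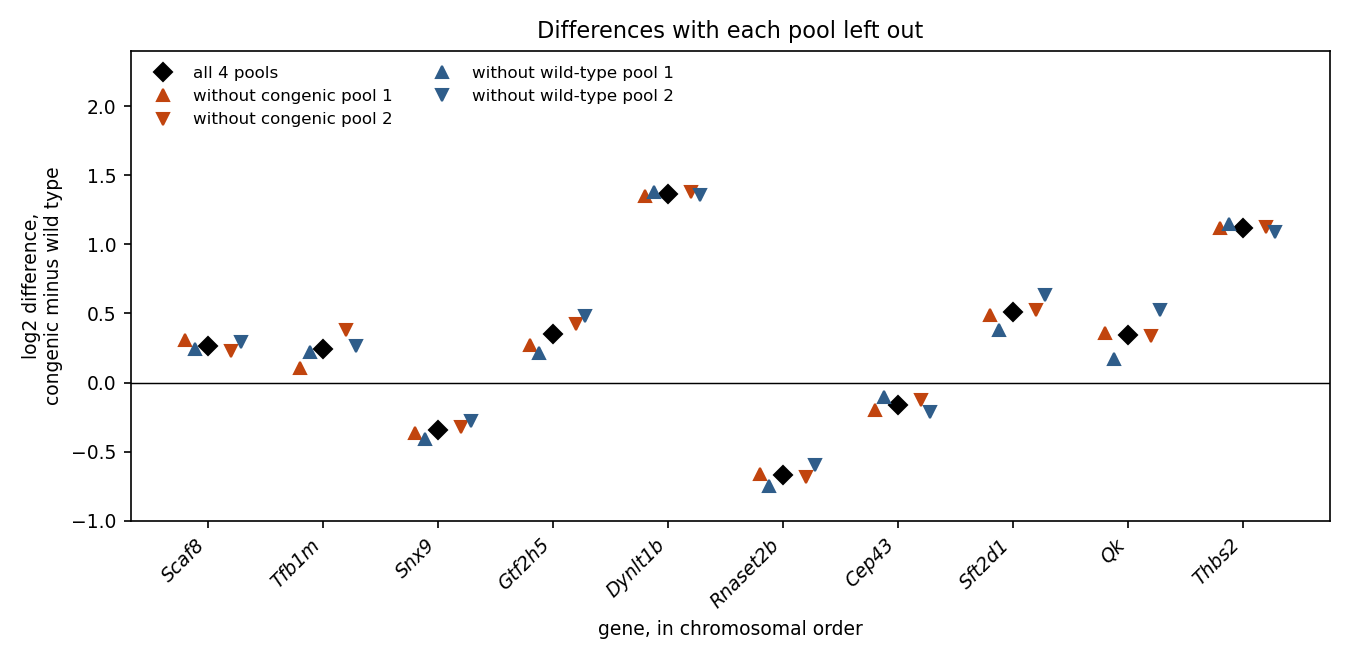
Congenic minus wild-type log2 difference (y axis) of each of the 10 genes in chromosomal order (x axis), with all 4 pools (diamonds) and with each pool left out (triangles). The points of Dynlt1b lie within 1.35 to 1.38, while those of Qk spread over 0.17 to 0.52. Since the pools of the strains did not overlap for any of the 10, no left-out pool could turn a sign.

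The other 12 measured genes of the stretch are those that the choice of the 10 by strain difference left. None of the 12 passed in limma, which that choice largely fixed and which lies near the 0.475% of all probes, and 3 reached an unadjusted p below 0.05, as did 15.8% of all probes. Their pools did not overlap between strains for 9 of 12, beside 49.4% of all probes, with 4 higher and 5 lower in the congenic mice. Ezr, which encodes ezrin, a linker of actin to the membrane that parietal cells are rich in, lies between Dynlt1b and Rnaset2b. It read 17.59 and 17.54 in congenic pools, against 17.96 and 18.19 in wild-type pools (-0.51 ± 0.097, limma adjusted p = 0.143). Both Ezr and Rnaset2b were lower in both congenic pools, while Dynlt1b on the other side of Ezr was higher.

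Farther along, Sod2, the mitochondrial superoxide dismutase, read 16.86 and 17.07 in congenic pools, against 17.16 and 17.56 in wild-type pools (-0.40 ± 0.15, limma adjusted p = 0.2882). Mrpl18, a mitochondrial ribosomal protein, read 16.41 and 16.42 in congenic pools, against 16.09 and 16.27 in wild-type pools (0.23 ± 0.085, limma adjusted p = 0.2913). These genes differed in opposite directions, and neither passed. Ldhal6b, a relative of lactate dehydrogenase between Tfb1m and Snx9, differed by 0.37 ± 0.15 (limma adjusted p = 0.3181). Wtap, a subunit of the complex that methylates adenosine in RNA, differed by -0.28 ± 0.12 (limma adjusted p = 0.3212). Prr18 differed by 0.58 ± 0.35 (limma adjusted p = 0.4623), but its wild-type pools read 12.23 and 11.13, against 12.38 and 12.14 in congenic pools, so the strains overlapped.

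From Agpat4 to Smoc2, 9 consecutive measured genes hold no gene of the 10, and their differences lay between -0.40 and 0.23. Thbs2, with 1.12, follows them directly. Over the rest of chromosome 17, 17 of 357 genes passed in limma (6 higher and 11 lower), beside 0.475% of all probes (0.289% higher and 0.186% lower). The median absolute difference was 0.207 there, against 0.254 over the 12 other genes of the stretch and 0.153 over all probes. The choice of the 10 by strain difference shaped both the run before Thbs2 and the set of 12. Nothing is therefore read from that run or from the 0.254.

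**Figure D3:**
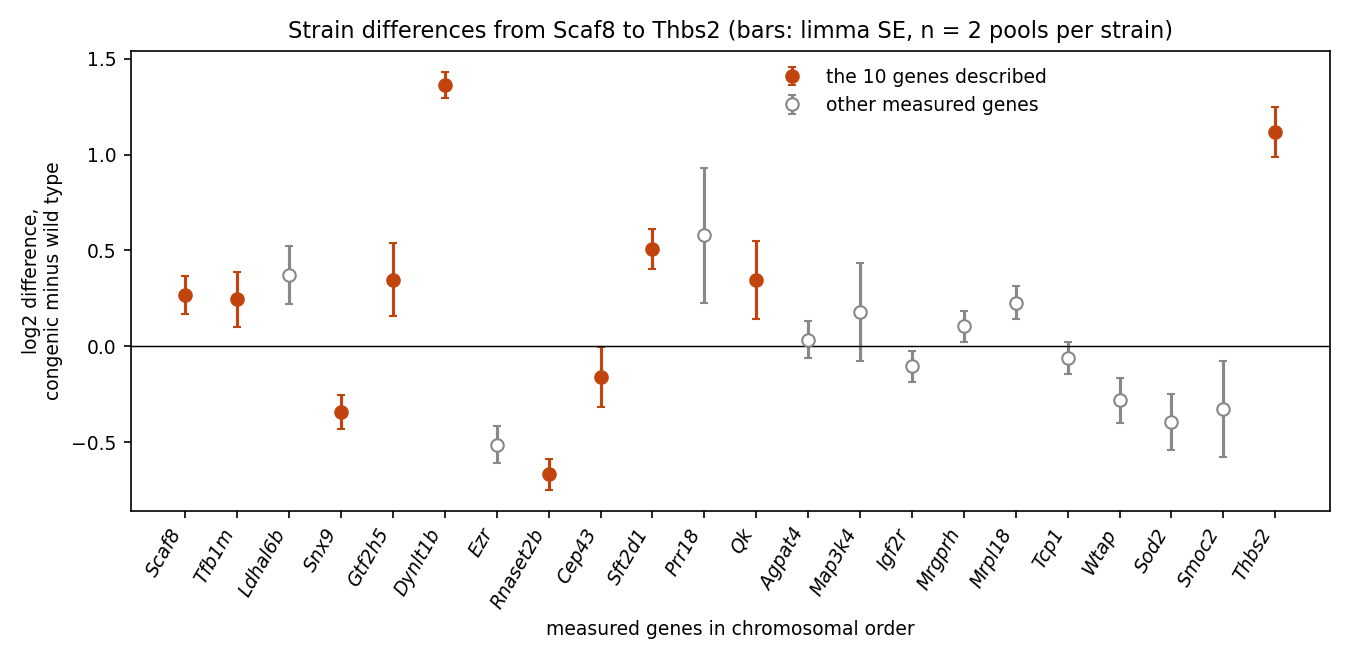
Congenic minus wild-type log2 difference (y axis, bars are limma SE) of the 22 measured genes between Scaf8 and Thbs2 in chromosomal order (x axis, not to scale in distance); filled points are the 10 genes described and open points the other 12. Dynlt1b (1.36) and Thbs2 (1.12) stand highest and Rnaset2b (-0.67) lowest, and genes above and below 0 both occur among them.

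Each of the 10 genes was set beside a list of genes of its own process, to see whether the process differed with it. The lists were measured only in part, from 11 of 20 genes for Scaf8 to 12 of 16 for Tfb1m. Scaf4 and Scaf11 beside Scaf8, and Thbs1 and Thbs4 beside Thbs2, were among the genes without a comparison. Of 128 measured genes on the 10 lists together, none passed in limma, the unadjusted p was under 0.05 for 25, and the median difference was -0.028. Of all probes 0.475% passed and 15.8% had an unadjusted p under 0.05, so lists of this size would hold few or no passing genes at the background share, and the same shares apply to each list. Single lists had medians between -0.129 and 0.049. For Dynlt1b, 0 of 17 measured dynein and dynactin genes passed in limma, the unadjusted p was below 0.05 for 3, and the median was 0.010. The light chain Dynlrb2 read 10.73 and 11.02 in congenic pools, against 10.13 and 10.26 in wild-type pools (0.68 ± 0.23, limma adjusted p = 0.261). The light chain Dynll2 differed the other way (-0.28 ± 0.099, limma adjusted p = 0.2758).

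For Rnaset2b, 0 of 14 listed genes, lysosomal ones and the ribonuclease Rnase4, passed in limma and 5 reached an unadjusted p below 0.05. Their median was -0.129, with 11 of 14 below 0. Of all 13475 probes, 6797 were at or below 0, a share that applies to the other lists too. The glycogen-degrading enzyme Gaa read 13.24 and 13.00 in congenic pools, against 13.66 and 13.58 in wild-type pools (-0.50 ± 0.12, limma adjusted p = 0.1773), and Rnase4, a secreted ribonuclease, differed by 0.25 ± 0.078 (limma adjusted p = 0.2444). For Thbs2, 0 of 13 matricellular and receptor genes passed in limma, the unadjusted p was below 0.05 for 1, and the median was 0.030. That one was Sparc, a collagen-binding matrix protein (0.30 ± 0.085, limma adjusted p = 0.2216). Cd47, a thrombospondin receptor, differed by 0.15 ± 0.081 (limma adjusted p = 0.41).

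Among genes of clathrin endocytosis, the process of Snx9, 0 of 16 passed in limma and 4 reached an unadjusted p below 0.05. The clathrin heavy chain Cltc differed by 0.28 ± 0.070 (limma adjusted p = 0.1879), and Dnm2, the dynamin that cuts vesicles free, by -0.49 ± 0.13 (limma adjusted p = 0.1967). Dnm2 and Snx9 were both lower in both congenic pools. Beside Sft2d1, 0 of 12 genes of Golgi vesicle fusion passed in limma, 2 reached an unadjusted p below 0.05, and 9 of 12 were below 0, with the SNARE Ykt6 at -0.31 ± 0.083 (limma adjusted p = 0.1955) and Golt1a at 0.45 ± 0.17 (limma adjusted p = 0.2883). Beside Cep43, 0 of 10 centriole and cilium genes passed in limma and 1, Ninl, had an unadjusted p under 0.05 (0.28 ± 0.11, limma adjusted p = 0.3017). Kif3a, a motor of cilium assembly, differed by 0.53 ± 0.26 (limma adjusted p = 0.378).

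In the lists of transcription and RNA, none passed either. Of 11 genes of TFIIH and excision repair, beside Gtf2h5, 0 passed in limma and 2 reached an unadjusted p below 0.05, Xpa (-0.23 ± 0.088) and Ddb1 (-0.22 ± 0.086), both of which take part in recognising DNA damage. Of 12 genes of mitochondrial transcription and ribosomal RNA methylation, beside Tfb1m, 0 passed in limma and 2 reached an unadjusted p below 0.05. These were the ribosomal RNA methyltransferase Nsun4 (-0.46 ± 0.12) and the polymerase subunit Polg2 (-0.52 ± 0.19). Of 11 genes of the polymerase tail and transcript ends, beside Scaf8, 0 passed in limma and 2 reached an unadjusted p below 0.05, the tail kinase Cdk9 (-0.61 ± 0.14) and the cleavage factor Cpsf1 (-0.44 ± 0.12). Of 12 splicing regulators, beside Qk, 0 passed in limma and 3 reached an unadjusted p below 0.05, among them Celf1 (0.32 ± 0.12) and Mbnl2 (-0.23 ± 0.084).

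**Figure D4:**
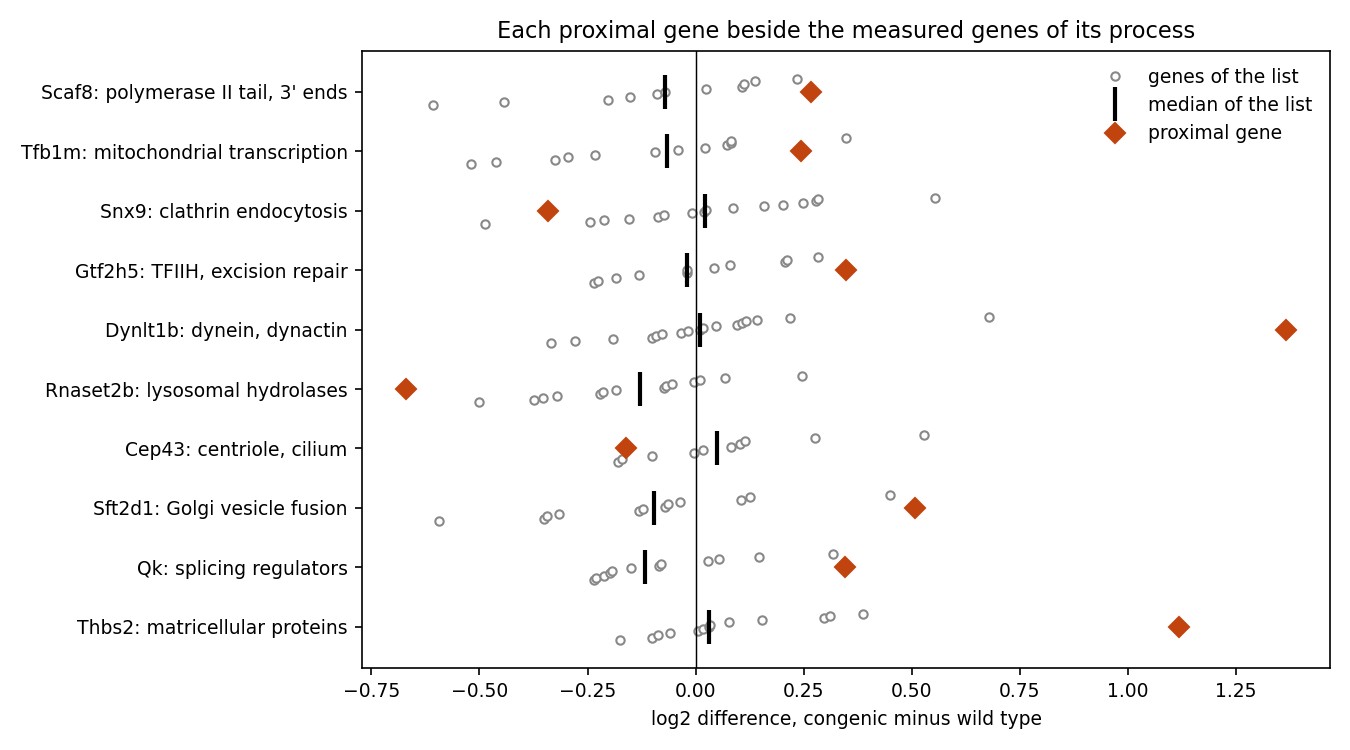
Congenic minus wild-type log2 difference (x axis) of each of the 10 genes (diamonds) beside the measured genes of its process (open points) and their median (bars). List medians lie between -0.129 and 0.049. Dynlt1b (1.36) lies to the right of all its list, whose highest value is 0.68, and Rnaset2b (-0.67) to the left of all its list, whose lowest is -0.50. Scaf8, Gtf2h5, Sft2d1, Qk and Thbs2 also lie to the right of their lists, while Tfb1m, Snx9 and Cep43 lie within theirs. The 10 genes were picked by their strain difference, which favours a place outside a list, so nothing is read from it.

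The genes whose pattern over the 4 arrays was most like that of Dynlt1b were found by the Euclidean distance between mean-centred log2 values, among 7897 named probes. The nearest was Tmprss3, a membrane serine protease also on chromosome 17, at a distance of 0.173. It read 11.01 and 10.87 in congenic pools, against 9.65 and 9.42 in wild-type pools. The next were Amy2a5, a pancreatic amylase on chromosome 3 (0.225), and Mat1a, an enzyme of methionine metabolism typical of liver on chromosome 14 (0.23). With 4 arrays, any gene of like size and direction scores as similar.

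The stomach samples carried the markers of gastric mucosa: 8 of 11 listed markers had a probe, all 8 were measured on every array, and 0 of 8 passed in limma, with 3 at an unadjusted p under 0.05, beside 15.8% of all probes. These 3 read lower in both congenic pools than in either wild-type pool. The hormone gene Gast, for gastrin, differed by -0.59 ± 0.099 (limma adjusted p = 0.113), Ghrl, for ghrelin, by -0.43 ± 0.093 (limma adjusted p = 0.1713), and the acid pump subunit Atp4a by -0.21 ± 0.079 (limma adjusted p = 0.2878). The other pump subunit, Atp4b, differed by 0.04 ± 0.075, Gkn1 by -0.04 ± 0.22, Tff2 by 0.14 ± 0.17 and Cblif by 0.64 ± 0.33. For Cblif wild-type pool 1 alone was low, at 19.02, against 20.14 in wild-type pool 2 and 20.20 and 20.24 in congenic pools. Gkn2 read 21.25, the highest value of each array. The 8 highest values were the same on all 4 arrays, so its equality says nothing of the strains. Markers of other tissues differed between the strains. These lists, like all others here, were chosen with earlier results of these data known, so their counts are a description. Of 14 measured exocrine pancreas markers, 12 had a higher mean in congenic pools and 2, Clps and Pnliprp2, a lower one. In limma 10 of the 14 passed, all of them higher, beside 0.475% of all probes. They were led by Cela2a (3.23 ± 0.081, limma adjusted p = 0.0002302). The median difference of the 14 was 1.066. Their summed signal was 21.38 and 21.35 on the log2 scale in congenic pools, against 20.98 and 21.0 in wild-type pools. The brightest markers, Pla2g1b (0.415 ± 0.122) and Clps (-0.086 ± 0.141), weigh most in this sum, so it differs less than the median. All 8 measured liver markers had a higher mean in congenic pools, with a median difference of 0.765. The pools of the strains did not overlap for 6 of these 8, beside 49.4% of all probes, and 2 passed in limma. The sums of the 8 were 18.82 and 18.72 in congenic pools, against 18.63 and 18.65 in wild-type pools. The bright Apoa1 and Ttr, whose pools overlapped between strains, weigh most in these sums. All 9 measured skeletal muscle markers had a lower mean in congenic pools, with a median difference of -1.08. The pools of the strains did not overlap for 8 of these 9, and 3 passed in limma. The sums of the 9 were 16.33 and 16.37 in congenic pools, against 17.32 and 17.4 in wild-type pools. The markers Ctrl, Fgb, Hp and Tnnt1 had blank cells. None of the markers is among the 10 genes, and their part in the differences of the 10 was not tested.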

How the data were processed

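Stomach RNA was extracted with TRIzol, and 1 microgram was copied into digoxigenin-labelled RNA for chemiluminescent detection, per the labels' protocols. The deposited values are 1 log2 signal per probe and array, from 6.73 to 21.2. Not given in the sources used here are the authors' normalization, the reason for blank cells, and the log base, which was inferred from this range. Between 69.9% and 72.6% of an array's values recur on all 4 arrays. Of 33012 probes, 14411 have a single gene symbol in the platform's annotation, and 13475 have 4 values and were compared. The arrays' number limits the precision.

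The strain comparison used lmFit and eBayes with a variance trend (limma 3.58.1, R 4.3.3), two-sided, with Benjamini-Hochberg adjustment over 13475 probes and a threshold of 0.05, without further normalization, since array medians lay between 12.819 and 12.824. Where a gene had several probes, that with the highest mean was used. RefSeq tables (GRCm38.p6) gave gene order and upstream windows, aligned with Biopython 1.88. The 10 genes and all lists were chosen with earlier results of these data known. Named were the 10 genes, 6 other genes of the stretch and 2 genes per list by p, mucosal markers, and 3 genes most like Dynlt1b. Titles gave groups and pool numbers. Spread between pools is all that the p-values measure. Alternatives were a replicate block, quantile normalization, median centring, leaving out dim probes, each pool left out, no variance trend, 1 blank allowed, and averaged probes. Figures were drawn with matplotlib 3.10.9.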

Additional observations from a re-analysis of the deposited data

How the results depend on the processing

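The pool number as a replicate block left 35 probes past the threshold (23 higher and 12 lower in congenic pools), against 64 without it, and 1 of the 10 genes, Dynlt1b, against 3. Deviations of same-numbered pools correlated at -0.064 over 13475 probes, so with 2 pools per strain the numbers were not taken to pair the samples. Without the variance trend 20 probes passed, and 1 of the 10 genes, again Dynlt1b. With each pool left out, between 15 and 168 probes passed (15 when congenic pool 1 was dropped, 27 when congenic pool 2 was, and 168 when wild-type pool 2 was), between 1 and 2 of the 10 genes passed, and the median difference of the 10 lay between 0.217 and 0.387. Leaving out a pool also leaves fewer samples, and the lone pool is then assumed to vary like the others. The causes of the other changes were not tested. Under quantile normalization, median centring, 1 blank allowed and averaged probes the count for the 10 genes was 3. Among probes at or above the median level, which include 5 of the 10, it was 2, with Thbs2 left out as a dim probe. Of the alternatives with all 4 pools, only the 2 scalings could move the difference of a single gene of the 10, by at most 0.033 under quantile normalization and 0.002 under median centring; the values already share most of one distribution across arrays, so neither scaling had much to change. With a pool left out the largest shift was 0.179. None of the other 12 genes of the stretch and none of the listed process genes passed in limma under any of these alternatives, although 3 and 25 had an unadjusted p under 0.05. Blank cells and an unknown signal over background limit the dim probes.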

Other observations

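In the stretch from Scaf8 to Thbs2, 18 of 40 single-symbol probes had blank cells and entered no comparison, 9 of them with no value on any array. The 9 without any value were those of Tiam2, Nox3, Zdhhc14, Synj2, Tcp10a, Rsph3a, Pde10a, Slc22a2 and Mas1. For 2 probes both congenic pools had a value and both wild-type pools were blank, as for 1.27% of all 33012 probes. Both belong to Prr18, which lies between Sft2d1 and Qk, and read 11.01 and 10.86 on one probe and 10.81 and 10.53 on the other in congenic pools. The third Prr18 probe, described with the other genes of the stretch, had a value in both wild-type pools, and its strains overlapped. For 2 other probes both congenic pools were blank and both wild-type pools had a value, as for 0.6% of all probes. These were Sytl3, which encodes a synaptotagmin-like protein and lies beside Ezr, with 10.08 and 9.74 in wild-type pools, and 1700010I14Rik, next before Qk among the genes with any value, with 11.07 and 10.84 in wild-type pools. What leaves a cell blank is not given in the sources used here, so no fold was drawn from these values.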
